A study of Mus musculus with 27 samples.

Results

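The data described here are the 4C-Seq reads on the *Nkx3-2* gene and the sequence beside it, one *BglII* fragment at a time. A fragment was a member if its midpoint lay in chr5:41739501-41787537 of the mm10 build, which holds the gene (chr5:41761483-41764501, minus strand) and the intergenic sequence on each side of it. This gave 21 fragments of 51862 on chromosome 5 and 949826 in the genome, and the rule used position, not reads. Each was read in 27 libraries, which came from 3 tissues (forelimb buds, hindlimb buds and liver of E14.5 mouse embryos) and 3 viewpoints (N1, N2 and N3), with 3 replicates of each combination. Every replicate was a pool of 5 to 6 embryos of the C57BL/6N background, given as C57BL/6NJ in the protocol and as C57BL/6Ncrl in the strain label, with no mutation or treatment named in any group. The template of a tissue and replicate was amplified with a pool of viewpoint primers, so its N1, N2 and N3 libraries came from the same chromatin.

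*Nkx3-2*, also known as *Bapx1*, encodes a homeodomain transcription factor that represses the maturation of cartilage on its way to bone. Genes of this kind are controlled by enhancers that can lie far from the promoter and reach it when the chromatin fibre folds back on itself. 4C-Seq measures such folding from 1 chosen position, the viewpoint. Crosslinked chromatin is cut with a restriction enzyme, here *BglII*, neighbouring ends are ligated, and the sequences joined to the viewpoint are amplified and counted. The viewpoints sit at 3 putative limb enhancers of *Nkx3-2*, except that the N2 viewpoint lies downstream of the enhancer it is named for. The comparisons ask which fragments at the gene were reached from them in limb buds, and whether liver, taken as the other tissue, differed.

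All viewpoints lay on the 3′ side of the gene and faced it. The distance from the nested primer to the annotated 5′ end of *Nkx3-2* was 598.8 kb for N1, 360.5 kb for N2 and 228.7 kb for N3. The runs below go from the first base of each nested primer to the end of the *BglII* site beside it, on the plus strand of GRCm38.p6, with the site in capitals. They are shown because they are the anchored ends from which the contacts were amplified.

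N1, chr5:41165733-41165760: cttgagtttgccacccaaacctAGATCT
N2, chr5:41403985-41404017: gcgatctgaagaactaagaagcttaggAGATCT
N3, chr5:41535790-41535815: gttgtaagtagcagacacagAGATCT

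The 21 fragments were numbered from the 3′ side to the 5′ side of the gene. Fragments 1 to 9 covered 17.4 kb on the 3′ side, toward the viewpoints. Fragments 10 to 12 covered 7.12 kb and overlapped the gene. Fragments 13 to 21 covered 18.7 kb on the 5′ side. Fragment 12 (chr5:41762614-41766981) is called the promoter fragment, since it held exon 1 and the annotated 5′ end. Fragment 11 (chr5:41761888-41762613) held intron and part of exon 2, and fragment 10 (chr5:41759862-41761887) the rest of exon 2 with the 3′ end. The cut sites below are those on which the results turn. Each run has 12 bases on either side of the site, from the plus strand of GRCm38.p6, with the *BglII* site in capitals. Distances are from the annotated 5′ end of *Nkx3-2*, negative toward the viewpoints.

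Cut 1|2, chr5:41745865-41745894, at −18.6 kb: tgtttgttttccAGATCTttccaccaactt
Cut 4|5, chr5:41749429-41749458, at −15.1 kb: ggaaggacctgaAGATCTgtgatgtgtgtc
Cut 10|11, chr5:41761875-41761904, coding part of exon 2: ggttctgaaaccAGATCTtcacttgcgtct
Cut 11|12, chr5:41762601-41762630, intron of *Nkx3-2*: ggggaagggtgcAGATCTtgaggtcagagg
Cut 12|13, chr5:41766969-41766998, at 2.48 kb: tgttttgcgacaAGATCTgtcatcattctg
Cut 18|19, chr5:41781534-41781563, at 17.0 kb: ggctttccgcggAGATCTctggccaggcct

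The site AGATCT is its own reverse complement, so 1 search covers both strands. It was absent from the window that RefSeq gives as the *Nkx3-2* promoter and present in 7.37% of 32851 such windows of the same length in GRCm38.p6. Contacts of the promoter were therefore read at the ends of a fragment of 4368 bp.

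Depth differed between the viewpoints, and it sets what can be seen. A library held 2984 to 20134 reads from N1, 165471 to 570405 from N2 and 924023 to 2376866 from N3. Of the 1933 reads on the 21 fragments, 910 came from the 18 limb libraries and 1023 from the 9 liver libraries. Reads stood on 118 of 567 combinations of fragment and library, and 42 of these were 1 or 2 reads. No read fell in the region in 4 libraries, which were N1 hindlimb replicate 2, N1 liver replicates 1 and 2, and N2 hindlimb replicate 1. Where libraries are compared, reads are given as RPM, that is scaled to a library of 1000000 reads. Reads were not marked with molecular identifiers, so a count of reads is not a count of ligation events.

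**Figure D1:**
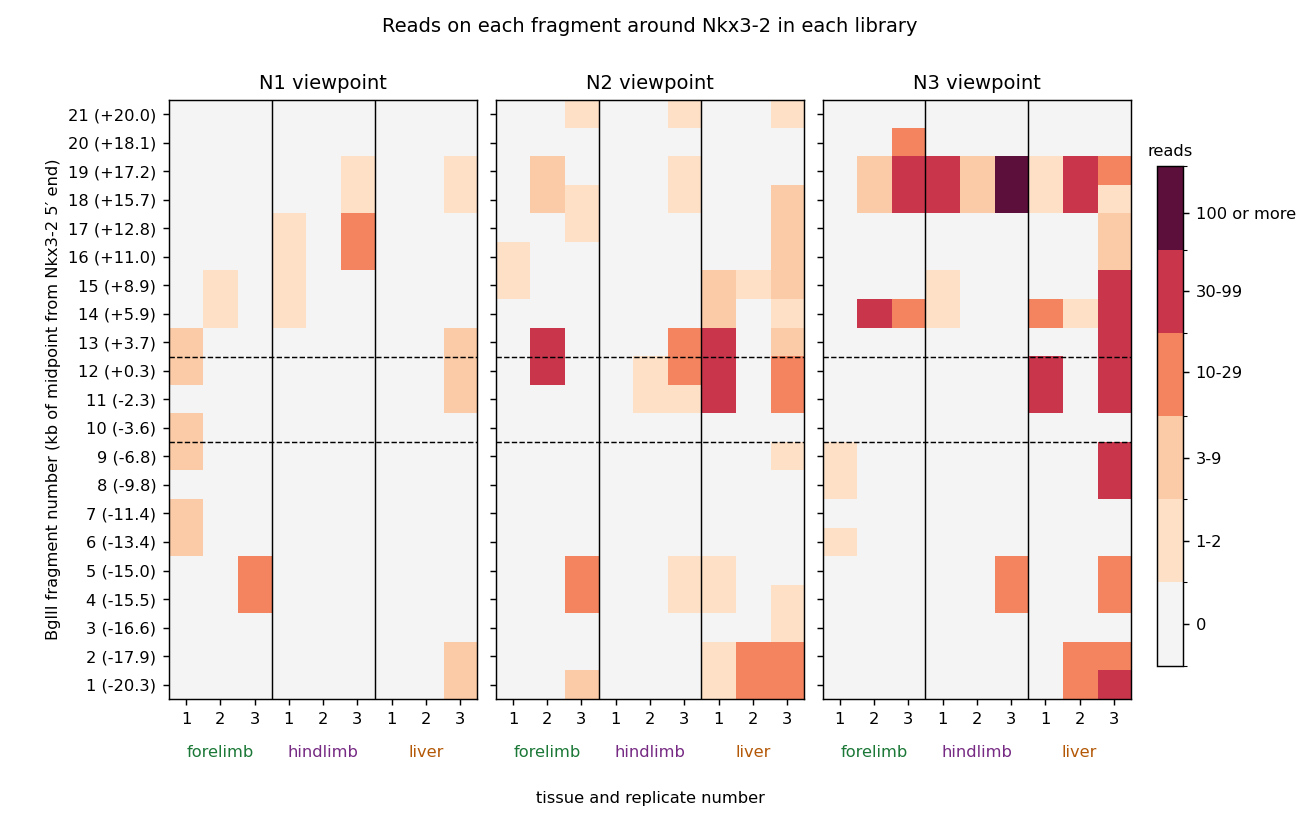
Reads on each of the 21 fragments (rows, numbered from the 3′ side, with the distance of the midpoint from the *Nkx3-2* 5′ end in kb) in each of the 27 libraries (columns, grouped by tissue and replicate within a viewpoint). Dashed lines enclose the fragments that overlap the gene. Reads come in pairs of neighbouring fragments, and fragments 18 and 19 hold reads in 8 of 9 N3 libraries.

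Neighbouring fragments were not independent. Of the 118 values above 0, 68 were equal to the value of a neighbour in the same library. The promoter fragment held exactly the sum of the reads on its neighbours, fragments 11 and 13, in 7 of the 9 libraries in which it had reads. The counts thus often came in pairs, with the same number on each side of a cut site. How reads at a cut were assigned to its sides was not given in the sources used. Sums of reads over neighbouring fragments, above and below, may therefore count the same read on both sides of a cut. Fragment length was a weak guide to the number of libraries with reads, with a Spearman rho of 0.12 over the 21 fragments, given as a description. The values below are reads on a fragment, not levels per kb, unless stated.

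Every fragment was reached in at least 1 library, and 14 were reached from all viewpoints, 5 of them from all viewpoints in limb. From N1, 14 of 21 fragments had reads in at least 1 of 6 limb libraries. Among 343 other chromosome 5 fragments at a like distance from the N1 primer, between 398 and 896 kb, the share was 7.87%. This background and those below take in both directions from the primer, while the members all lie on the side of the gene. From N2 the count in limb was 12 of 21 against 30.2% of 202 fragments at a like distance. From N3 it was 10 of 21 against 39.7% of 121 fragments. By tissue, N1 reached 10 fragments in forelimb (background 5.83%), 6 in hindlimb (3.79%) and 7 in liver (18.4%). N2 reached 11 in forelimb (22.3%), 8 in hindlimb (13.4%) and 15 in liver (54%). N3 reached 7 in forelimb (24.8%), 6 in hindlimb (24%) and 15 in liver (60.3%). In limb, the gap to the background was widest from N1, the viewpoint with the fewest reads, and smallest from N3, the viewpoint with the most. In liver it was not widest from N1 as a difference in percentage points, although it was as a ratio.

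Few fragments were reached in every replicate of a tissue. From N1, 4 fragments had reads in at least 2 of 6 limb libraries (background 1.75%). No fragment had N1 reads in 2 forelimb libraries (0.583%), 2 fragments had reads in 2 hindlimb libraries (0%), and none had reads in 2 liver libraries (2.04%). From N2, 8 fragments had reads in at least 2 of 6 limb libraries (12.4%) and 2 in at least 3 (0.99%), with 1 fragment reached in 2 forelimb libraries (5.45%) and 2 in 2 hindlimb libraries (2.48%). No fragment was reached from N1 or N2 in all 3 libraries of a limb tissue, nor was any of the background fragments. From N3, 3 fragments (14, 18 and 19) were reached in at least 2 forelimb libraries (7.44%) and in at least 3 of 6 limb libraries (5.79%), and none in all 3 forelimb libraries (0.826%). Fragments 18 and 19 alone were reached in at least 2 hindlimb libraries (4.13%), and also in all 3 (3.31%). In liver, 3 fragments were reached in every replicate from N2 (2.48%), where 8 had reads in at least 2 libraries (20.3%), and 3 were reached in every replicate from N3 (4.96%).

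The fragments over the gene itself are described first. Fragment 10, with the 3′ end of *Nkx3-2*, was reached in 1 of 27 libraries, with 4 reads in N1 forelimb replicate 1. It shared that count with fragment 9, outside the gene. The cut in the coding part of exon 2, between fragments 10 and 11, had reads on both sides in no library.

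From N1, the promoter fragment had 8, 0 and 0 reads in forelimb replicates 1 to 3, no read in hindlimb, and 0, 0 and 9 reads in liver. Fragment 11 was reached from N1 only in liver replicate 3, with 6 reads. A read in an N1 library is a large share of it. The 8 reads of forelimb replicate 1 were 397 RPM and the 9 reads of liver replicate 3 were 645 RPM. In the limb libraries 3 counts, the limit for a count of 0 if reads were independent events, came to between 149 and 1005 RPM. In each tissue the promoter was thus either missed or reached in a single replicate from N1.

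From N2, the promoter fragment had 0, 34 and 0 reads in forelimb replicates 1 to 3, 0, 1 and 22 in hindlimb, and 77, 0 and 19 in liver. Reads were present in 1 of 3 forelimb, 2 of 3 hindlimb and 2 of 3 liver libraries, and the tissues overlapped. The mean was 34.6 ± 55.7 RPM in limb (SD, n = 6) and 75.0 ± 71.7 in liver (SD, n = 3). In the edgeR quasi-likelihood fit the log2 fold change of limb over liver was −1.22 (SE 1.84, adjusted p = 0.997), and that of forelimb over hindlimb was −1.09 (SE 2.24, adjusted p = 0.998). Both lay within the spread between replicates. Leaving out 1 library moved the first to −4.37 (without forelimb replicate 2) or −0.16 (without liver replicate 1) and the latter to 3.61 (without hindlimb replicate 3), none of them called.

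The neighbours of the promoter fragment were read unequally in these N2 counts. Fragment 11, beyond its intronic end, had no forelimb reads, 0, 1 and 1 reads in hindlimb, and 47, 0 and 12 reads in liver. Fragment 13, beyond its 5′ end, had 0, 35 and 0 reads in forelimb, 0, 0 and 21 in hindlimb, and 30, 0 and 7 in liver. The limb reads of the promoter fragment were thus nearly all matched on fragment 13, at the cut 2.48 kb on the 5′ side, whereas those of liver were matched on both neighbours, a difference that was not tested. The log2 fold change of fragment 13 was 0.12 (SE 2.08, adjusted p = 0.997) for limb over liver and −0.95 (SE 2.40, adjusted p = 0.998) for forelimb over hindlimb in edgeR, and the first turned to −3.51 and the second to 6.49 without hindlimb replicate 3. Fragment 11 from N2 did not pass the filter on low counts and was not tested in that fit. From N1, fragment 13 had 8 reads in forelimb replicate 1 and 3 in liver replicate 3, and from N3 it had 33 reads in liver replicate 3.

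From N3, the nearest viewpoint and the deepest, the promoter fragment was at 0 reads in each of the 6 limb libraries. In liver it had 59, 0 and 95 reads in replicates 1 to 3, a mean of 23.3 ± 20.8 RPM (SD, n = 3). Fragment 11 had no limb read either, and 59, 0 and 45 reads in liver. If reads were independent events, a count of 0 would allow up to 3 counts, which is 1.69 to 3.25 RPM in the limb libraries. A count of reads is not a count of ligation events here, so a 0 does not bound the contact. In liver the promoter fragment ran from 0 to 40.0 RPM between replicates. The groups overlapped at 0, since liver replicate 2 also lacked reads there. Fragments 10 to 12 together held 0 of 650 limb reads and 258 of 699 liver reads in the region from N3, or 36.9%.

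Over the whole gene, fragments 10 to 12 held 12 of 94 limb reads (12.8%) and 15 of 32 liver reads (46.9%) of the region from N1. From N2 they held 59 of 166 limb reads (35.5%) and 155 of 292 liver reads (53.1%). These are sums in which single libraries weigh heavily. From N1 the gene reads came from 1 limb library (forelimb replicate 1) and 1 liver library (replicate 3). From N2, liver replicate 1 gave 124 of the 155 liver reads, and without it the liver share was 25.8%, below that of limb. The N3 liver share was 24.6% without liver replicate 1. No difference in share was tested.

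The 5′ side of the gene, away from the viewpoints, held the site with the most recurrent reads. From N3, fragment 18 had 0, 5 and 64 reads in forelimb replicates 1 to 3, 42, 3 and 156 in hindlimb, and 1, 35 and 2 in liver. Fragment 19 had 0, 6 and 75 reads in forelimb, 42, 3 and 170 in hindlimb, and 1, 36 and 26 in liver. Both were reached in 5 of 6 limb libraries and in 3 of 3 liver libraries. At least 5 limb libraries reached 2 of 21 members and 2 of 121 fragments at a like distance (1.65%). The pair shares a cut and was singled out by its recurrence, so these counts are a description. The values ran from 0 to 107 RPM between limb replicates, and the liver values lay inside that range.

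The mean of fragment 18 was 29.4 ± 38.1 RPM in limb (SD, n = 6) and 5.98 ± 9.20 in liver (SD, n = 3). For fragment 19 the means were 32.2 ± 41.9 and 9.51 ± 8.38. The edgeR log2 fold change of limb over liver was 1.91 (SE 1.82, adjusted p = 0.997) for fragment 18 and 1.33 (SE 1.70, adjusted p = 0.997) for fragment 19. The value of fragment 18 was 0.34 without forelimb replicate 3 and 4.85 without liver replicate 2, and that of fragment 19 was −0.33 without forelimb replicate 3. Forelimb over hindlimb gave −2.30 (SE 2.00, adjusted p = 0.968) and −2.18 (SE 1.92, adjusted p = 0.968), which turned to 0.03 and 0.26 without hindlimb replicate 3. None of these differences exceeded the spread between replicates.

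The fragments 18 and 19 carried 566 of 650 limb reads in the region from N3, or 87.1%, and 101 of 699 liver reads, or 14.4%. They lie on either side of the same cut, so these sums may count the same reads on both. Hindlimb replicate 3 alone gave 326 of the 566. They differed more than 10-fold in length, 2704 against 223 bp, and had nearly the same reads, so that the level per kb in limb was 10.9 RPM on fragment 18 and 145 on fragment 19. The cut between them had reads on both sides in 12 libraries, 8 of them from N3, more than any other cut of the region. From N1, both fragments had 1 read in hindlimb replicate 3 and 1 in liver replicate 3. From N2, fragment 18 had 0, 4 and 2 reads in forelimb, 0, 0 and 1 in hindlimb and 0, 0 and 7 in liver, and fragment 19 had reads in forelimb replicate 2 (4 reads) and hindlimb replicate 3 (1 read). The annotation places no gene at this cut. Fragment 19 had the highest GC content of the region, 59.2%, where the lowest was 40.2% on fragment 3.

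**Figure D2:**
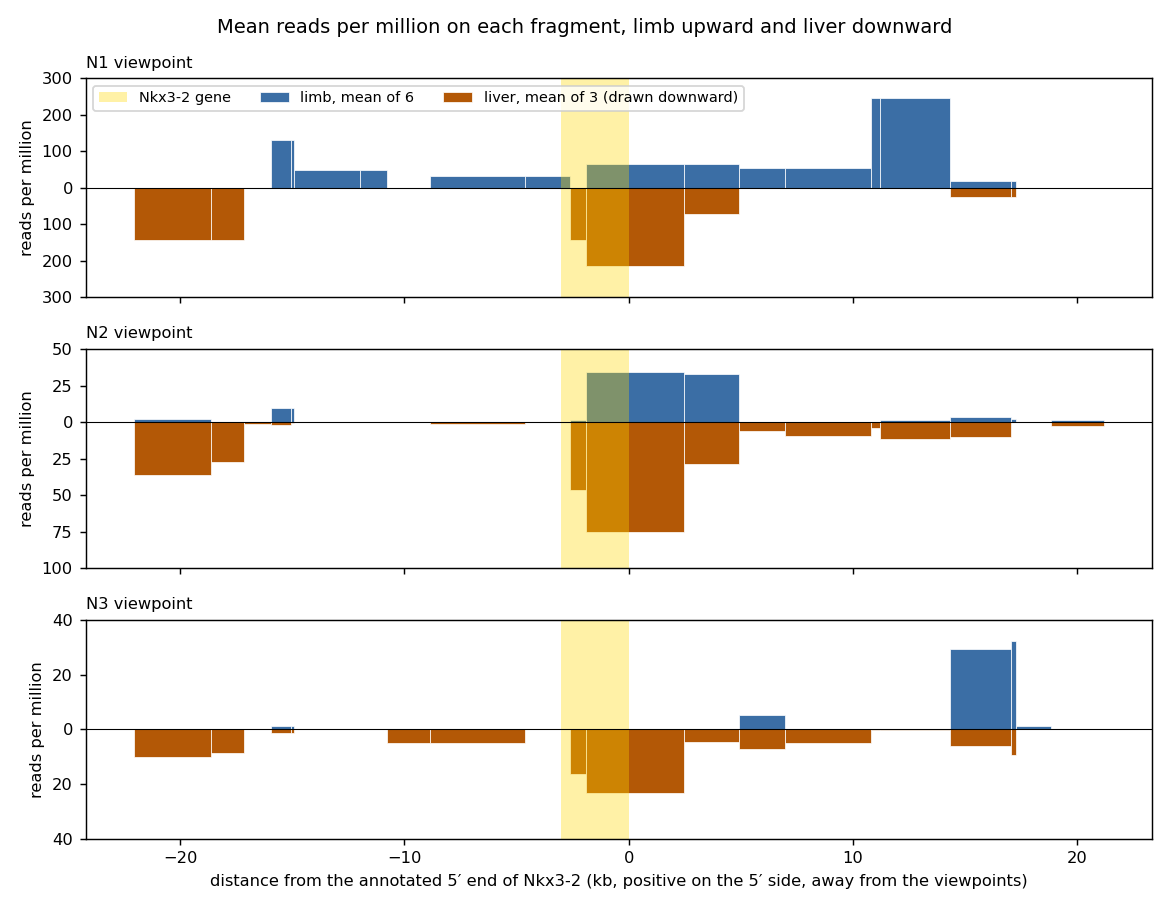
Mean RPM on each fragment, drawn to scale by distance from the annotated 5′ end of *Nkx3-2* in kb, with the 6 limb libraries upward and the 3 liver libraries downward for each viewpoint (the vertical scales differ). From N3 the limb reads stand on fragments 18 and 19, 17 kb on the 5′ side, and none on the gene, where liver has a mean of 23.3 on the promoter fragment.

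Fragment 14, 5.9 kb on the 5′ side of the gene, had 0, 32 and 13 reads from N3 in forelimb, 1, 0 and 0 in hindlimb, and 10, 1 and 37 in liver. It was reached in 2 of 3 forelimb libraries and 3 of 3 liver libraries. The log2 fold change of forelimb over hindlimb was 4.88 (SE 2.39), with an unadjusted edgeR p of 0.0611 and an adjusted p of 0.709. That of limb over liver was −2.66 (SE 1.66, adjusted p = 0.990). From N2 it was reached only in liver, with 7, 0 and 1 reads, and from N1 with 1 read in forelimb replicate 2 and 2 in hindlimb replicate 1.

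The other fragments of the 5′ side were thinly covered. Fragment 15 had liver reads from N2 in all 3 replicates, 7, 1 and 3, and in limb 1 read in forelimb replicate 1. Fragments 16 and 17 had the only N1 reads of the region in more than 1 library of a tissue, with 1 read on each in hindlimb replicate 1 and 12 on each in hindlimb replicate 3. Neither had an N1 read in forelimb or liver. From N2 and N3 they had 1 to 8 reads, mainly in liver replicate 3. Fragment 15 had 35 reads from N3 in that replicate and at most 2 in other libraries of N1 and N3. Fragment 20 was reached in 1 library (11 reads, N3 forelimb replicate 3), and fragment 21 in 3 libraries with 1 or 2 reads.

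On the 3′ side, toward the viewpoints, the cut farthest from the gene was read on both sides only in liver. Fragment 1 had 1, 12 and 18 reads from N2 in liver replicates 1 to 3 and 0, 29 and 40 from N3. Fragment 2 had 1, 12 and 12 reads from N2 and 0, 29 and 28 from N3 in liver. Neither was reached from N3 in limb, and from N2 the limb had 3 reads on fragment 1 in forelimb replicate 3 and none on fragment 2. All 6 libraries with reads on both sides of this cut were liver libraries (1 from N1, 3 from N2 and 2 from N3). Liver replicates 2 and 3 were the ones that had the higher counts from both N2 and N3. Neither fragment passed the filter on low counts, so no fold change was fitted.

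Fragments 4 and 5, with midpoints at −15.5 and −15.0 kb, were reached from every viewpoint in limb, each time mainly in 1 library. From N1, both had 12 reads in forelimb replicate 3. From N2, fragment 4 had 0, 0 and 14 reads in forelimb, 0, 0 and 1 in hindlimb, and 1, 0 and 1 in liver. From N3, the values were 11 and 12 reads in hindlimb replicate 3 and 10 and 10 in liver replicate 3. Reads on both came to forelimb replicate 3 from N1 and from N2, which were amplified from the same template. Fragments 3 and 6 to 9 were reached in 1 to 4 libraries each, with at most 36 reads.

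Of the 21 members, the filter on low counts left 0 from N1, 2 from N2 (fragments 12 and 13) and 3 from N3 (fragments 14, 18 and 19) for the edgeR fit over all fragments of the genome. None of these was called at an adjusted p of 0.05 for limb against liver or for forelimb against hindlimb. The background was also 0% of 28 fragments tested from N1, 1025 from N2 and 3684 from N3. At an unadjusted p of 0.05, the counts over all fragments were 2, 50 and 189 for limb against liver and 1, 76 and 270 for forelimb against hindlimb. DESeq2 called 0, 0 and 13 fragments in the first comparison and 0, 10 and 74 in the second, and no member was among them. The biological coefficient of variation was 1.14 to 1.28 in these fits, so the SD between replicates of a tissue was larger than their mean.

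Taken as a single window, the region had RPM values of 1788, 179 and 1576 in N1 forelimb, 709, 0 and 2951 in N1 hindlimb, and 0, 0 and 2292 in N1 liver. From N2 the values were 3.51, 160 and 134 in forelimb, 0, 8.08 and 296 in hindlimb, and 319, 59.5 and 411 in liver. From N3 they were 1.69, 29.9 and 115 in forelimb, 52.8, 6.49 and 221 in hindlimb, and 65.9, 61.7 and 185 in liver. Limb and liver overlapped from every viewpoint, and limb replicates of a tissue differed by more than 10-fold from N2 and N3. The liver libraries had reads throughout from N2 and N3, and in 1 of 3 from N1.

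Windows of the same width over the genome were fitted in the same way, and 0% were called in either comparison, out of 36, 1104 and 4837 tested from N1, N2 and N3. At an unadjusted p of 0.05 the windows numbered 3, 69 and 328 for limb against liver and 2, 88 and 427 for forelimb against hindlimb. DESeq2 called 0, 1 and 27 windows in the first comparison and 0, 7 and 96 in the second, and the *Nkx3-2* window was not among them. The log2 fold change of the *Nkx3-2* window, limb over liver, was −0.19 (SE 1.86) from N1, −1.45 (SE 1.33) from N2 and −1.05 (SE 1.12) from N3, with edgeR adjusted p-values of 0.971, 0.974 and 0.972. Forelimb over hindlimb gave −0.84 (SE 2.17), −0.44 (SE 1.61) and −1.92 (SE 1.38), with adjusted p-values of 0.869, 0.993 and 0.792. Without hindlimb replicate 3 the N2 value for limb over liver was −3.94 (adjusted p = 0.0556 in edgeR). In that edgeR fit 341 of 2256 windows had an unadjusted p under 0.05. It called 13 windows, all lower in limb, and the *Nkx3-2* window was not among them. Without liver replicate 3 the N1 value for limb over liver was 7.44, and without hindlimb replicate 3 forelimb over hindlimb turned to 2.38, 4.43 and 0.57, none of them called. With all libraries, no difference in level between tissues was detectable at this depth and spread.

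The number of members reached from N3 was lower in limb than in liver at the depths sequenced. It was 3, 3 and 4 of 21 in forelimb, 4, 2 and 4 in hindlimb, and 5, 5 and 15 in liver. The groups did not overlap, and limb had 5 fragments fewer on average (two-sided exact permutation test over 84 arrangements, p = 0.0119, the smallest it can give, adjusted p = 0.0357 over the 3 viewpoints). The adjustment covers this measure alone. The same exact permutation test from N3 gave p = 0.333 for log2 RPM of the region and p = 0.345 for its reads scaled to distant chromosome 5 reads. Liver replicate 3 carried most of the difference. Without it the difference was −1.67 and p = 0.107 in the exact permutation test, where 0.0357 is the smallest p possible. The N3 liver libraries were also the deepest, with 1971831 to 2376866 reads against 924023 to 1772337 in limb. Outside the members and the stretch of chromosome 5 from N1 to N3, liver replicates 1 to 3 reached 26060, 15511 and 35865 fragments. The limb libraries reached 14610 to 19414 fragments there. At the depth of the shallowest N3 library the expected numbers were 1.56 to 4.00 in limb and 3.94 to 14.2 in liver, which overlapped, and the exact permutation p was 0.0357, or 0.107 adjusted over the 3 viewpoints.

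From N2 the numbers were 2, 4 and 6 fragments in forelimb, 0, 2 and 8 in hindlimb, and 9, 3 and 14 in liver (limb minus liver −5, exact permutation p = 0.131). From N1 they were 6, 2 and 2 in forelimb, 4, 0 and 4 in hindlimb, and 0, 0 and 7 in liver (limb minus liver 0.67, exact permutation p = 0.798). Forelimb and hindlimb overlapped from every viewpoint, and 3 libraries against 3 cannot reach a p below 0.1 in this test. Reads also reached many of the other fragments in liver. Of these, 54% of those at a like distance had reads in at least 1 of 3 liver libraries from N2 and 60.3% from N3, against 15 of 21 members from each.

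**Figure D3:**
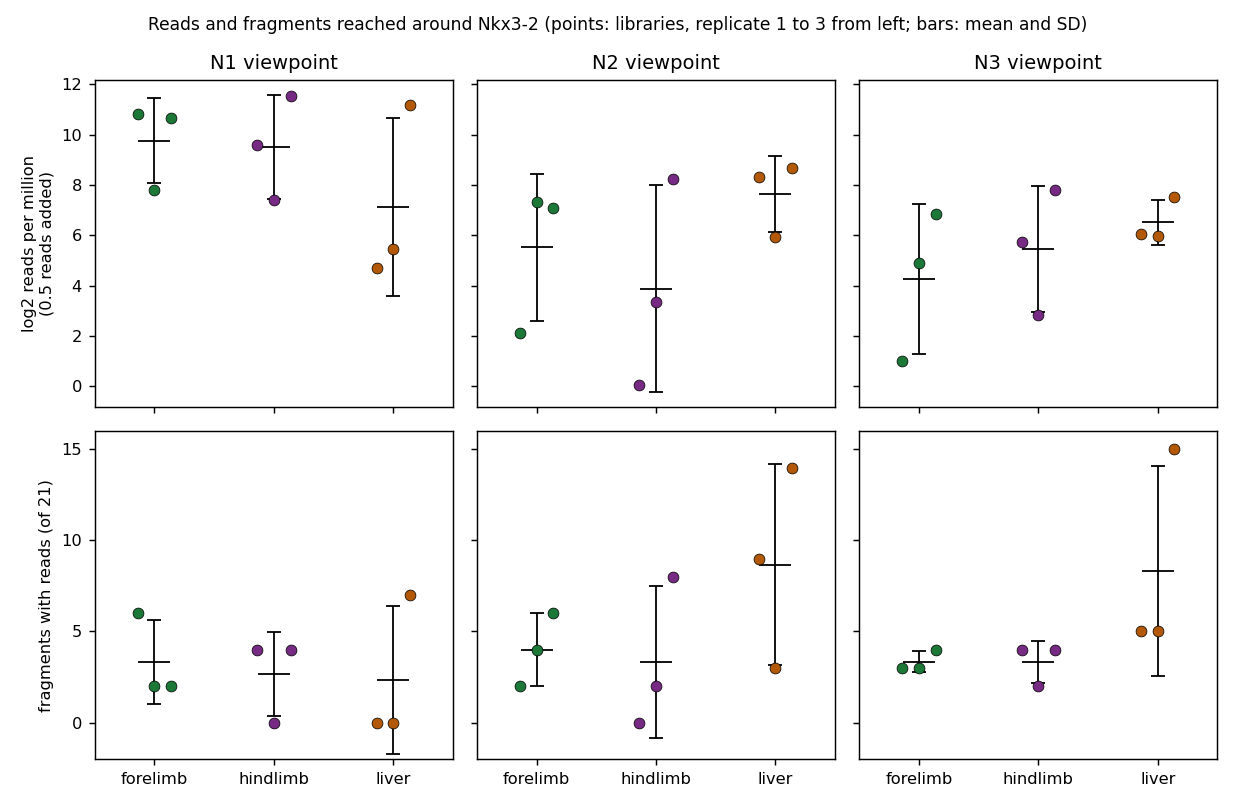
RPM on the 21 fragments, as log2 with 0.5 reads added (upper row), and the number of fragments with reads (lower row), for each library by viewpoint and tissue, with the mean and SD of 3 replicates as bars. Libraries without a read in the region stand at the value of 0.5 reads, which is high for the shallow N1 libraries. From N3 the limb libraries have 2 to 4 fragments with reads and the liver libraries 5 to 15.

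The side of the gene was compared as the log2 ratio of reads per kb on the 5′ side to those on the 3′ side, with 0.5 reads added to each and the gene left out. From N3, limb reads stood mainly on the 5′ side, with 624 reads against 26 on the 3′ side. Fragments 18 and 19 held 566 of the 624. In number of fragments the sides were even, with 5 reached on each side in limb. The ratio was −2.91, 6.34 and 8.25 in forelimb and 7.33, 3.60 and 3.69 in hindlimb, above 0 in 5 of 6 libraries. The mean was 4.38 ± 4.04 (SD, n = 6), which missed the threshold in a two-sided exact sign-flip permutation test (p = 0.0625, adjusted p = 0.1875 over the 3 viewpoints, smallest possible p 0.03125). The library below 0, forelimb replicate 1, had 3 reads in the region. With each fragment counted once per library, the mean ratio was 1.34 (exact sign-flip permutation p = 0.25, adjusted p = 0.375). In N3 liver the ratio was 4.54, 0.21 and −0.31.

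From N1 the limb reads were near even, 42 on the 5′ side and 40 on the 3′ side. The ratio was −1.06, 2.22 and −5.72 in forelimb and 3.60, −0.10 and 5.62 in hindlimb, with a mean of 0.76 ± 4.00 (SD, n = 6, exact permutation p = 0.719). From N2 there were 74 and 33 limb reads, and the ratio was 2.22, 6.34 and −2.62 in forelimb and −0.10, −0.10 and 3.19 in hindlimb, with a mean of 1.49 ± 3.13 (SD, n = 6, exact permutation p = 0.375). A ratio of −0.10 is that of a library without reads on either side. Single libraries went far to one side or the other, and from N1 and N2 they did so in both directions.

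**Figure D4:**
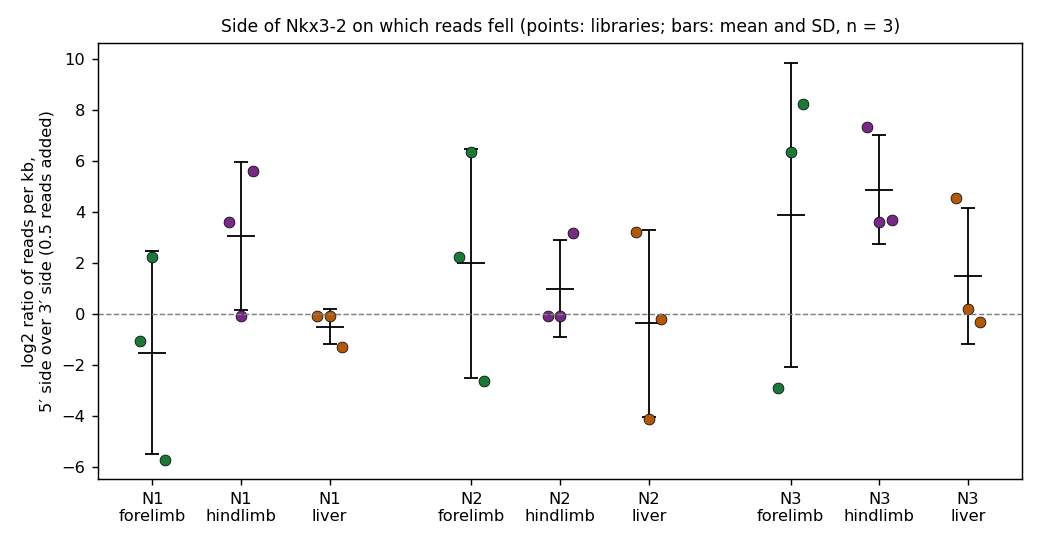
Log2 ratio of reads per kb on the 5′ side to the 3′ side of *Nkx3-2* (vertical axis, 0.5 reads added) for each library by viewpoint and tissue, with the mean and SD of 3 replicates as bars. From N3, 5 of 6 limb libraries lie above 0, while N1 and N2 have limb libraries on both sides of 0.

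Libraries of different viewpoints that came from the same template were set beside other libraries by the members they shared. Of the members reached from N1, summed over the 9 templates, 40% were also reached from N2 in the same template, against 20% in another replicate of the tissue and 32.7% in another tissue. As a share of the N2 members these were 20.8, 10.4 and 17.0%. For N1 and N3 the shares were 56, 26 and 29.3% of the N1 members and 31.1, 14.4 and 16.3% of the N3 members. For N2 and N3 they were 50, 31.3 and 24.3% of the N2 members and 53.3, 33.3 and 25.9% of the N3 members. Liver replicate 3 alone gave 6 of the 10 members shared within a template by N1 and N2, 7 of 14 by N1 and N3, and 12 of 24 by N2 and N3. Without that template the same-template shares were 22.2, 38.9 and 35.3% of the members of the first-named viewpoint. The shares with other libraries were not recomputed without it. These are descriptions without a test. Over the rest of the genome, medians over library pairs were taken in place of sums, with liver replicate 3 kept. The medians were close to each other, for N1 and N3 4.67, 4.27 and 4.07% of the N1 fragments. In the template of liver replicate 3 that share was 12.7%.

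On the 3′ side the neighbouring gene is *Rab28* (chr5:41624976-41708157), which encodes a small GTPase. On the 5′ side *Bod1l* (chr5:41787538-41844315) adjoins the region, with its promoter at the far end. Its flank overlaps the members, so that no likeness was computed for it. Likeness was measured as Pearson's r of log2 RPM over the 27 libraries, with the mean of each viewpoint removed, for 5 protein-coding genes within 2 Mb. The closest were *Cpeb2* (r = 0.49, 8 libraries with reads), *Gm16223* (r = 0.43, 21 libraries) and *Cc2d2a* (r = 0.20, 14 libraries), and *Rab28* had r = 0.19 (21 libraries). These correlations describe libraries that share depth and template, and they were not tested.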

How the data were processed

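The 27 libraries were grouped by tissue and viewpoint from their titles, since other label fields give hindlimb replicate 3 another number and N3 liver libraries another enhancer. The authors trimmed reads (cutadapt 1.10), mapped them (BWA 0.7.10-r789, mm10), excluded blacklisted regions and MAPQ below 30, and binned them into *BglII* fragments. The deposited counts are reads per fragment, not normalized. The deposited signal column, counts per kb, was not used. All 51861 chromosome 5 sites of GRCm38.p6 matched a fragment end, so GENCODE vM21 and RefSeq annotation applied. No libraries were identical.

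The members were taken by position, but the region, lists and tests were chosen with earlier results of these data known. Counts of fragments and of 48037-bp windows more than 20 kb from the primer were fitted per viewpoint over the genome by the quasi-likelihood method of edgeR 4.0.16 in R 4.3.3, after filterByExpr and TMM, and called at a Benjamini-Hochberg adjusted p of 0.05, with DESeq2 1.42.0 as an alternative. The SE of an edgeR log2 fold change was derived as its absolute value over the square root of the quasi-likelihood F statistic. Single values had two-sided exact permutation tests (Python 3.11.15, numpy 2.4.6, pandas 2.3.3). Background fragments lay on chromosome 5, in either direction from the primer, within a factor of 1.5 of the distance to the middle of the gene. Fragments with reads in at least 2 libraries of a tissue, or holding an exon, were named with all values. Alternatives were library totals without TMM, no filter, a replicate block, chromosome 5 alone, merged equal neighbours, other pseudocounts and each replicate left out. For the side ratio they also included fragments counted once, a ratio per fragment and the liver libraries. Methods were tested on simulated data, where most large changes were missed at the spread seen here, so an absent call does not show equal levels. P-values measure the spread between libraries, and whether libraries of different tissues came from the same pool of embryos was not tested.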

Additional observations from a re-analysis of the deposited data

Results flagged for a closer look

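The difference in region level between the N1 and N3 libraries of a template was not the same in limb and liver. In log2 RPM (reads scaled to a library of 1000000) with 0.5 reads added, N1 minus N3 was 4.79 ± 2.53 in limb (SD, n = 6) and 0.61 ± 2.67 in liver (SD, n = 3), a difference of 4.18 (two-sided exact permutation test, p = 0.0238, adjusted p = 0.0714 over 3 pairs of viewpoints, smallest possible p 0.0119). It does not pass after the adjustment. In N1, 1 of 6 limb and 2 of 3 liver libraries had no read in the region, so their values are set by the 0.5 reads added and by library depth.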

How the results depend on the processing

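The direction of the window and side results was not stable where counts were few. For the N1 window, limb over liver was −0.19 and turned to 0.25 without the filter, 0.64 with library totals without TMM, 2.51 in log2 RPM, 2.75 scaled to distant chromosome 5 reads, 0.67 in number of fragments and 0.39 in number of fragments at equal depth (the last and the number of fragments without liver replicate 3, which was 3, were chosen after seeing the data). Forelimb over hindlimb in these 3 measures of the exact test was 0.25, 1.07 and 0.67 for N1, against −0.84, and 1.65, 1.24 and 0.67 for N2, against −0.44. For N3, limb minus liver in number of fragments passed at −5 (exact permutation, adjusted p = 0.0357) and did not pass at equal depth, at −4.56 (adjusted p = 0.107). The side ratio was −0.085 for N1 with equal neighbours merged, and 3.42 for N3 with liver included (exact permutation p = 0.0273, adjusted p = 0.082). The causes were not tested.

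With each library left out in turn, limb over liver ran from −2.24 to 7.44 (N1), −3.94 (without hindlimb replicate 3, edgeR adjusted p = 0.0556) to −1.16 (N2) and −2.30 to −0.05 (N3), and forelimb over hindlimb from −1.60 to 2.38, −1.42 to 4.43 and −3.46 to 0.57. In the N2 fit without hindlimb replicate 3, 13 of 2256 windows were called for limb over liver, and not the *Nkx3-2* window. The side ratio ran from −0.21 to 2.06, 0.52 to 2.31 and 3.61 to 5.84. The upper ends of the window ranges came without liver replicate 3 for N1 and N3 in limb over liver and without hindlimb replicate 3 in forelimb over hindlimb. Fragment 13 from N2 ran from −3.51 to 1.24 for limb over liver and −7.24 to 6.49 for forelimb over hindlimb, and fragment 12 from −4.37 to −0.16 and from −7.34 to 3.61. From N3, limb over liver ran from 0.34 to 4.85 for fragment 18 and from −0.33 to 1.91 for fragment 19. For forelimb over hindlimb, fragment 18 ran from −5.48 to 0.034 and fragment 19 from −5.34 to 0.26, with the upper ends without hindlimb replicate 3. Calls over all fragments ran from 0 to 2 (N1) in limb over liver and from 0 to 1, 0 to 3 and 0 to 1 in forelimb over hindlimb. DESeq2 called 13 (N3), and 10 (N2) and 74 (N3) in the latter, and without the filter 1 and 3 were called from N3. No member was among these calls.

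Whether the replicate numbers pair the samples of different tissues was not tested. Correlations were computed after the mean of each tissue was taken out. Same-numbered libraries of different tissues correlated above 0.1 in 4 to 6 of 9 pairs, and 3 to 7 of 9 libraries correlated best with their own number. For fragments and for windows from every viewpoint, the mean correlation was positive between same-numbered libraries. The mean between the others was negative. Taking out the tissue means pushes that value to the opposite sign, so it adds nothing on pairing. The tests without a replicate block took the libraries of a viewpoint as independent. With forelimb and hindlimb of a replicate number averaged, the N3 side ratio was 4.38 (exact sign-flip permutation p = 0.25, adjusted p = 0.375). A test of 3 values cannot give a lower p. With the replicate block, the N1 window gave 1.86 for limb over liver and 1.53 for forelimb over hindlimb, the N2 window −3.06 (edgeR adjusted p = 0.650) and 0.94, the N3 window −1.67 (adjusted p = 0.855) for limb over liver, and fragment 13 from N2 −1.41 and 0.14. Calls of fragments from N2 rose to 3 for forelimb over hindlimb, 3 windows from N2 were called in each comparison and 2 from N3 in the latter, and no *Nkx3-2* window or member was called.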
